A study of Mus musculus with 8 samples.

Results

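A set of 8 genes was drawn up for the nerve and hormone signals that set heart rate, contraction and vessel tone, and 4 of them could be followed here. They were taken as every row of the array table whose single gene symbol was one of Adrb1, Adra1a, Adra1b, Chrm2, Agt, Agtr1a, Ace and Ednra. This found 4 of the 13661 genes named on the array, with 7 of the 33600 probes. Adra1b, Agtr1a and Agt had 1 probe each and Ace had 4, of which 1 had no value on any array. The receptors Adrb1, Adra1a, Chrm2 and Ednra matched no row and were not analysed here.

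Noradrenaline and adrenaline act on the heart through beta-adrenergic receptors, which raise cAMP, and through alpha1-adrenergic receptors, which signal through Gq and phospholipase C. Acetylcholine from the vagus acts on the muscarinic receptor encoded by Chrm2, which lowers cAMP and slows the heart. Angiotensinogen (Agt) is cut by renin to angiotensin I, and the angiotensin-converting enzyme (Ace) cuts that to angiotensin II, whose type 1 receptor in mice is encoded mainly by Agtr1a. Endothelin acts beside angiotensin on Gq-coupled receptors. These systems are known as drug targets in heart failure, and beta blockers and inhibitors of the converting enzyme act on them.

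Whole hearts came from C57Bl/6 mice, which the labels give as 8 to 10 weeks old. In 4 mice a coronary artery, the descending left branch, was tied off for good, a model of heart failure after ischaemia. The 4 controls had the same operation with the suture left untied, so both groups had anaesthesia, ventilation and an opened chest. Each heart had its own array, so n is 4 hearts per group. How long after ligation the hearts were taken is not given in the sources used here. A whole heart with an infarct mixes scar, border and remote muscle, so fewer cells of a type and less RNA per cell cannot be told apart.

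Levels below are log2 signals over the median of the spot's print block, so 0 is the median spot. Multiplied by 1 constant in each of 384 blocks (48 on each of 8 arrays), the unlogged values became whole numbers within 0.001, from 42 to 65466. They therefore behave as the signal of 1 dye, and the sources used here do not say which. On every array the red dye marked heart RNA and the green dye a reference pool made from many adult mouse tissues. Sham arrays had values for 19704 to 24819 probes, and infarcted arrays for 21916 to 23655. Across features, arrays of a group correlated at 0.873 to 0.958, so no array was a copy of another in its group.

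Genes of heart muscle had signal, and so did genes that are not known from heart. Of 10 markers of cardiomyocytes, 9 had a value. Among them Ckm, muscle creatine kinase, lay at 6.28 to 7.01 in sham and 5.75 to 6.25 in infarcted samples, with 7 values. Pln, phospholamban, lay at 5.40 to 6.94 and 6.18 to 7.01, with 6 values. Ryr2 was the only one of them with a value on every array. It lay at 1.89 to 4.29 on sham and 3.13 to 3.7 on infarcted arrays, with a mean difference of 0.0151. Atp2a2 and Myl3 had values on infarcted arrays only, among the brightest of all, at 6.64 to 6.68 and 6.93 to 7.20. Why their sham values are missing was not tested, so the gap is not read as absence of their RNA. Genes of sperm maturation were bright as well. Prm1, protamine 1, lay at 4.03 to 5.61 on sham and 1.77 to 4.12 on infarcted arrays, and Tnp1, a transition protein, at 3.57 to 4.78 and 2.79 to 3.42. Tnp1 was above 88.3% of the spots on every array. The mean of 6 testis genes ran from 2.79 to 4.35 on sham and from 2.16 to 2.67 on infarcted arrays, without overlap. The mean of 6 of 8 liver genes ran from 2.61 to 3.74 on sham and from 1.83 to 2.64 on infarcted arrays, where Alb and Fgb had no value. The mean of 3 of 4 lung markers ran from 1.77 to 3.65 on sham and 1.88 to 2.17 on infarcted arrays, and that of 3 of 4 stomach markers from 2.26 to 3.74 and 2.31 to 2.52. Markers of spleen (3 of 4 genes) were near or below the median, at -1.16 to 0.06 on sham and -0.87 to -0.19 on infarcted arrays, and 2 of 6 brain genes at 0.10 to 1.76 and 0.38 to 1.09. Of 5 kidney genes only Aqp2 was complete, at -1.78 to 3.16 and 1.94 to 2.37. Testis or ovary, liver, lung, stomach, spleen, brain and kidney are tissues of the reference pool. If the values hold the reference dye, or some of its light, the differences below compare arrays rather than hearts, and these values do not settle which. For this reason the differences are given as those of the arrays.

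**Figure D1:**
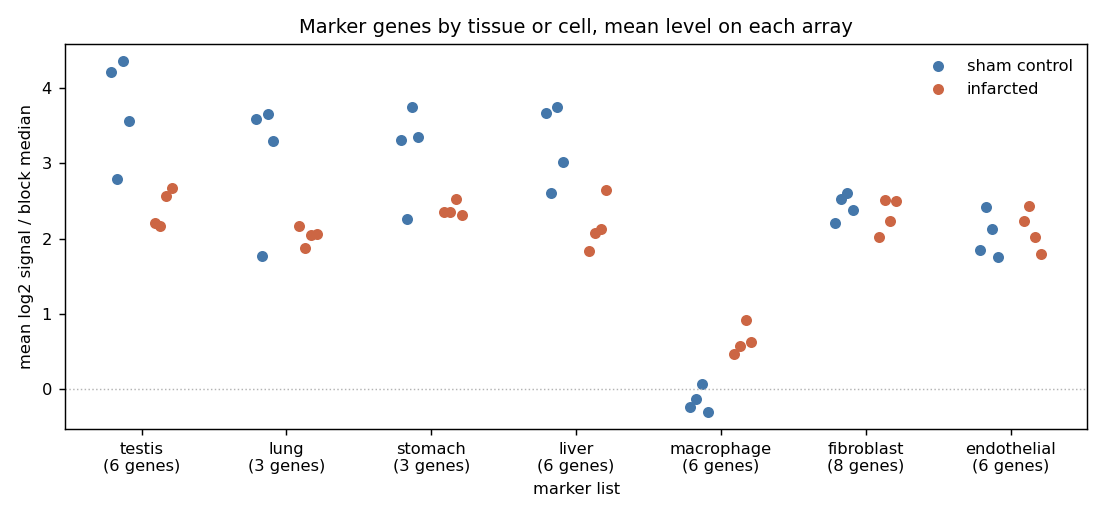
Mean log2 signal over the block median (vertical axis) of marker genes with a value on all 8 arrays, for 4 tissues of the reference pool and 3 cell types of the heart (horizontal axis); each point is 1 array. The 6 testis genes lie at 2.79 to 4.35 on sham and 2.16 to 2.67 on infarcted arrays, and the 6 macrophage genes at -0.30 to 0.07 and 0.47 to 0.92.

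Because testis transcripts were bright, the starts of Ace matter for its probes. Ace is known to have a start used in somatic cells and an internal start used in male germ cells, which gives the shorter testis form of the enzyme. RefSeq gives 2 promoter windows for Ace, both on the plus strand of chromosome 11 in build GRCm38.p6. The upstream one is chr11:105967698-105967947 and the internal one chr11:105974939-105975188, each the 250 bases before a start. They are shown 5′ to 3′ to let the starts be compared, with capitals at matches on either strand to 5 motifs. These were the GC box GGGCGG, then TATAAA and also TATAAT as forms of the TATA box, the cAMP response element TGACGTCA and its variant TGAGGTCA.
Ace upstream start: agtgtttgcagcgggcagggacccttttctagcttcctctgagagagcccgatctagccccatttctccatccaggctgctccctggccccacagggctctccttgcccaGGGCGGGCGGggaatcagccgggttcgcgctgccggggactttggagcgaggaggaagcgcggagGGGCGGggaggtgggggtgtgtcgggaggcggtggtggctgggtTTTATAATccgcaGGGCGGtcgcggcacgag
Ace internal start: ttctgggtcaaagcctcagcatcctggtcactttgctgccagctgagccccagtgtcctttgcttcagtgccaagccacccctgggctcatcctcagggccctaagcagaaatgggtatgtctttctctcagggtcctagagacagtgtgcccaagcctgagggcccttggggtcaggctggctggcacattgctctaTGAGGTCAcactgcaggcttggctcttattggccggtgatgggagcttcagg
The upstream window held 4 matches to GGGCGG, of which 2 overlap, and TATAAT 29 bases before the start, overlapping TATAAA on the other strand. The internal window held 1 match, TGAGGTCA, beginning 52 bases before its start. Among 32851 RefSeq windows of this length, 32.7% held GGGCGG, 12.4% TATAAA, 7.09% TATAAT, 1.55% TGACGTCA and 1.94% TGAGGTCA on either strand. A match is a description and not evidence of a site. The form of Ace that each probe detects is not given in the sources used here.

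None of the 6 tested member probes passed the threshold between infarcted and sham arrays (limma with Benjamini-Hochberg adjustment over 20561 probes, adjusted p under 0.05). The lowest adjusted p was 0.0997 and the highest 0.588. Of all tested probes 0.764% passed, 0.0632% (13) higher and 0.7% (144) lower on infarcted arrays. With the unadjusted p under 0.05, 3 of the 6 member probes (2 of Ace and that of Adra1b) and 12.5% of all probes were counted. The receptors and Agt had negative differences and the 3 Ace probes positive ones. The median over the 6 probes was 0.06, beside -0.07 over all tested probes.

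**Figure D2:**
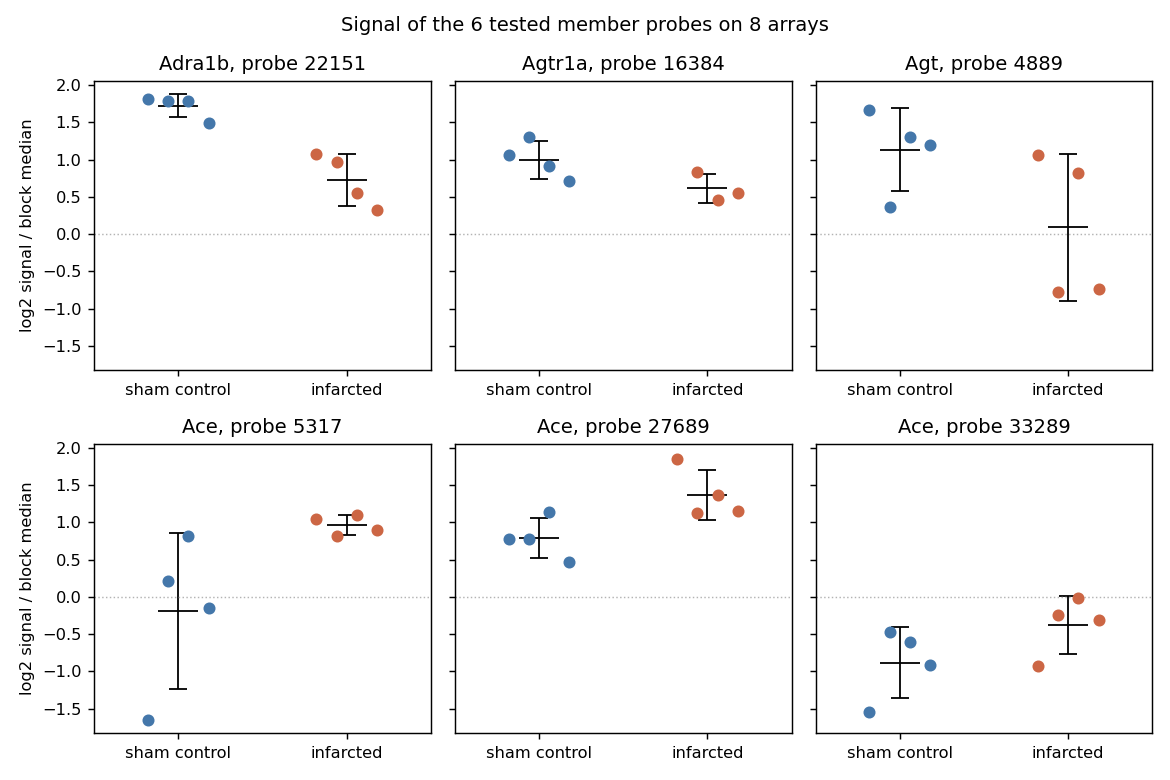
Log2 signal over the block median (vertical axis) of the 6 member probes with enough values, by group (horizontal axis); points are arrays, the long bar is the mean and the whiskers are 1 SD. The groups are apart for Adra1b, at 1.49 to 1.82 against 0.33 to 1.07, and overlap for the other 5 probes.

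Adra1b encodes the alpha1B-adrenergic receptor, one of the Gq-coupled receptors for noradrenaline in heart muscle. Its levels were 1.82, 1.79, 1.79 and 1.49 on sham replicates 1 to 4, and 1.07, 0.97, 0.55 and 0.33 on infarcted replicates 1 to 4. Every infarcted array was below every sham array. As scanner signals these were 1547 to 1860 on sham and 491 to 1550 on infarcted arrays, so before scaling to the block the groups overlapped slightly, with 1550 on infarcted replicate 1 and 1547 on sham replicate 2. The mean went from 1.72 ± 0.16 to 0.73 ± 0.35 (SD, n = 4 each), a log2 difference of -0.99 ± 0.24 (SE, 95% interval -1.52 to -0.46). Its adjusted p was 0.0997 in limma, short of the threshold. It was the only member probe whose groups did not overlap, where 9.11% of all tested probes did not overlap and 6.33% were apart in its direction. Of 2989 probes with a mean level between 1 and 2, whose median difference was -0.04, 4.05% had a difference as low or lower. After quantile normalization the difference was -0.93, and after loess against the mean array -0.95. The mean of the 6 liver genes and that of the 6 testis genes were lower on infarcted arrays too, with differences of -1.09 and -1.33. Those of the lung and stomach markers were -1.04 and -0.785. The brain and spleen markers differed by only -0.193 and -0.0479, and Aqp2 of kidney was higher by 0.492. The part of these markers here was not tested.

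Agtr1a encodes the type 1a receptor through which angiotensin II constricts vessels and drives growth of heart muscle. Its levels were 1.06, 1.30, 0.91 and 0.71 on sham replicates 1 to 4, and 0.83, 0.46 and 0.55 on infarcted replicates 2 to 4, with no value on infarcted replicate 1. Only infarcted replicate 2 reached into the sham range. The fit leaves out the missing array, and the log2 difference was -0.38 ± 0.25 (SE, 4 against 3 arrays, limma adjusted p = 0.588). Its 95% interval of -0.95 to 0.18 holds no change, and it also holds a decrease to almost the size seen for Adra1b. The mean of 7 of 8 smooth muscle and pericyte markers, cells that carry this receptor, was 1.49 to 1.91 on sham and 1.27 to 1.72 on infarcted arrays.

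Agt encodes angiotensinogen, the precursor of the angiotensins, which is known as a product mainly of liver. Its levels were 1.67, 0.36, 1.31 and 1.19 on sham replicates 1 to 4, and 1.06, -0.78, 0.82 and -0.73 on infarcted replicates 1 to 4. Infarcted replicates 2 and 4 were below every sham array, while replicates 1 and 3 lay within the sham range. The mean was 1.13 ± 0.55 in the sham and 0.09 ± 0.99 in the infarcted group (SD, n = 4 each). The log2 difference of -1.04 ± 0.48 (SE, 95% interval -2.10 to 0.02, limma adjusted p = 0.41) was the largest decrease among the members and had the largest SE. The liver markers, all of genes expressed where Agt is made, were lower by 1.09 in the mean on infarcted arrays. Their part in the difference of Agt was not tested.

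Ace encodes the enzyme that makes angiotensin II, carried mainly by endothelium. Its probe 27689 had levels of 0.78, 0.77, 1.14 and 0.47 on sham replicates 1 to 4, and 1.85, 1.12, 1.36 and 1.15 on infarcted replicates 1 to 4. The groups touched only where infarcted replicate 2 fell just under sham replicate 3. The log2 difference was 0.58 ± 0.25 (SE, 95% interval 0.02 to 1.14, limma adjusted p = 0.377).

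Ace probe 5317 had levels of -1.65, 0.21, 0.81 and -0.15 on sham replicates 1 to 4, and 1.05, 0.81, 1.10 and 0.90 on infarcted replicates 1 to 4. The infarcted arrays were close to each other and the sham arrays wide apart, with a signal of 106 scanner units on sham replicate 1. The log2 difference was 1.16 ± 0.45 (SE, 95% interval 0.16 to 2.16, limma adjusted p = 0.319). Without sham replicate 1 it was 0.67 (adjusted p = 0.408), so that array held much of its size.

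Ace probe 33289 was dim, with levels of -1.55, -0.47, -0.60 and -0.91 on sham replicates 1 to 4 and -0.93, -0.25, -0.02 and -0.31 on infarcted replicates 1 to 4. Infarcted replicate 1 lay inside the sham range. The log2 difference was 0.50 ± 0.30 (SE, limma adjusted p = 0.553), and 0.28 without sham replicate 1. The fourth Ace probe, 22089, had no value on any array.

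The 3 Ace probes had the same direction but did not follow each other on all arrays. Over the 8 arrays, which share their scaling and depth, Pearson's r was 0.654 between probes 5317 and 27689, 0.811 between 5317 and 33289, and 0.266 between 27689 and 33289. Averaged to 1 value per array, Ace differed by 0.75 ± 0.28 (SE, limma at gene level, adjusted p = 0.318). The mean of 6 endothelial markers, the cells that carry Ace, was 1.76 to 2.42 on sham and 1.79 to 2.43 on infarcted arrays. Egfl7 and Emcn of that list had no value. The mean of 6 of 9 macrophage and monocyte entries was -0.30 to 0.07 on sham and 0.47 to 0.92 on infarcted arrays, with no value for Cd68 and Csf1r. Among markers of the reference pool tissues, the 6 testis genes differed by -1.33 and the lung markers by -1.04, while Aqp2 of kidney differed by 0.492. The part of all these markers in the Ace differences was not tested.

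**Figure D3:**
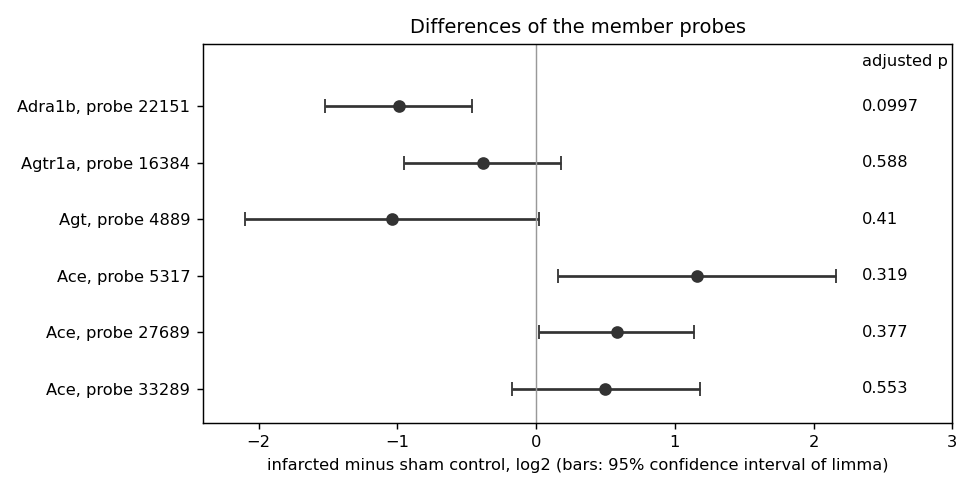
Log2 differences of infarcted minus sham control (horizontal axis) for the 6 member probes (vertical axis), with the 95% confidence interval of limma and the adjusted p at the right. The intervals of Adra1b and of Ace probes 5317 and 27689 leave out 0 before adjustment, and no adjusted p is below 0.0997.

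Genes whose levels ran most like those of a member over the 8 arrays were sought among probes of other named genes with a value on every array. Agtr1a, without a value on infarcted replicate 1, was left out. For Adra1b these were Nisch (r = 0.99) and Pdk4 (r = 0.989), the kinase that shuts off pyruvate dehydrogenase. For Agt they were Gjb1 (r = 0.98), a connexin known from liver and Schwann cells, and Defb19 (r = 0.977), a beta-defensin. The Ace probes had Rflnb (r = 0.997) and Ergic3 (r = 0.972) for 5317, Pygl (r = 0.968) and Nr1i3 (r = 0.951) for 27689, and Esrrg (r = 0.959) and Bod1l (r = 0.951) for 33289. Each was taken from the top of 10801 or 10803 probes on 8 arrays that share their groups and scaling, so these are descriptions only. No gene was nearest to more than 1 Ace probe.

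The pathways were counted in 9 lists of 165 genes, members included, of which 123 had a probe and 93 could be tested, by 122 probes. Without the members these were 89 genes and 116 probes. None of the 116 passed the threshold (limma, lowest adjusted p = 0.0966). An unadjusted p under 0.05 was found for 10 of the 116, beside 12.5% of all tested probes. Among them 54 were higher and 62 lower on infarcted arrays, with a median difference of -0.04. The groups did not overlap for 8 of the 116 or 6.9%, beside 9.11% of all tested probes. Of these 8, 6 were higher and 2 lower, where 2.79% of all tested probes were apart higher and 6.33% lower.

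Of 9 adrenergic receptor genes only Adra1b and Adra2c had a probe, and neither passed the threshold. Both were lower on every infarcted array than on any sham array, where 6.33% of all tested probes were apart in that direction. Adra2c encodes the alpha2C receptor, which restrains noradrenaline release from sympathetic nerve endings. Its levels were 2.09, 0.11, 1.67 and 0.19 on sham replicates 1 to 4, and -0.46, -1.23, -0.79 and -1.14 on infarcted replicates 1 to 4. The log2 difference was -1.92 ± 0.46 (SE, limma adjusted p = 0.0966). It passed in 1 of the 8 fits that leave out a single array, without sham replicate 4 (-2.20 ± 0.45, adjusted p = 0.0291). Sham replicates 2 and 4, the arrays with the fewest values, also held its 2 lowest sham levels. Leaving either out therefore enlarges the difference by construction. Without both the difference of Adra2c was -2.79 ± 0.30 (limma adjusted p = 0.00352). In that fit, which was not planned, the calls among all probes rose from 157 to 1288. The mean of 5 of 10 markers of neurons and Schwann cells was 0.29 to 1.56 on sham and 0.34 to 0.79 on infarcted arrays. That of the 6 testis genes was higher on sham replicates 1 and 3 (4.21 and 4.35) than on 2 and 4 (2.79 and 3.56), as were the levels of Adra2c. The lung markers parted these arrays in the same way, at 3.59 and 3.65 against 1.77 and 3.3. So did the liver genes, at 3.66 and 3.74 against 2.61 and 3.02. The stomach markers did not part these arrays, with 3.31 on replicate 1 and 3.35 on replicate 4. The part of these markers in the difference of Adra2c was not tested.

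Muscarinic receptors and the genes of acetylcholine supply were represented by 4 tested probes of 7. Bche, butyrylcholinesterase, stood at 0.56, Chrm1 at 0.36 and Chrm3 at -0.39, with adjusted p from 0.47 to 0.76 in limma. Chrm4 had no value on any array. Of 11 genes for making, storing and clearing catecholamines, 9 had a probe and 3 were tested. Maob, Maoa and Ddc, enzymes that break down or make amines, stood at 0.28, 0.16 and -0.13, and their groups overlapped. Th, the rate-limiting enzyme of catecholamine synthesis, had a value on 2 arrays, and Slc6a2, the noradrenaline transporter, on none.

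In the renin-angiotensin-aldosterone list 11 of 21 probes were tested and 5 of these belonged to members. Outside the members the 6 tested differences ran from -0.35 to 0.14. Atp6ap2, the prorenin receptor, stood at -0.23, Agtrap, which binds the type 1 receptor, at -0.05, and Cma1, a mast cell chymase that also makes angiotensin II, at -0.35. The 2 probes of Enpep, which trims angiotensin II, gave -0.18 and -0.17, and Mme, neprilysin, 0.14. Agtr1b, Agtr2 and Hsd11b2 had no value on any array, and Mas1 had 3 sham values and 1 infarcted value.

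The endothelin list had 3 tested probes. Edn3 stood at 0.58, Ednrb, the type B receptor, at 0.25 and Ece2, a converting enzyme, at -0.03, with adjusted p from 0.378 to 0.978 in limma. Edn1, the main cardiac and vascular endothelin, had a value on 1 sham and 1 infarcted array and Edn2 on none.

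Downstream of the receptors the differences scattered around 0. Among 20 probes of G protein subunits the median was -0.08, and the lowest was that of Gnas, the stimulatory alpha subunit, at -0.78 ± 0.32 (SE). The Gnas probe was bright, at 4.96 to 6.17 on sham and 4.34 to 5.27 on infarcted arrays, and 374 probes with a mean level between 5 and 6 had a median difference of -0.85. Gnb4 stood at -0.59 (limma adjusted p = 0.482), the 1 probe of this list whose groups did not overlap, and Gng11 at -0.40. The Gnb4 groups were barely apart, at -0.16 to 0.16 on sham and -1.45 to -0.17 on infarcted arrays. Infarcted replicate 1 was far the lowest, the next being -0.32. Among 26 probes of cAMP production, breakdown and protein kinase A the median was -0.05. The phosphodiesterases Pde3b and Pde7a and the cyclase Adcy3 stood highest, at 0.97, 0.71 and 0.66, and the groups of the first 2 did not overlap, beside 2.79% of all tested probes apart in that direction.

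Among 16 probes of receptor kinases, arrestins and RGS proteins, which switch off receptors and G proteins, the median was -0.15. Grk5, a kinase that desensitises adrenergic receptors, stood at 0.56. The 3 probes of Rgs3 gave -0.47, -0.18 and -0.20, and the 3 of Grk4 gave -0.58, -0.38 and -0.11. Among 37 probes of Gq effectors, which lie downstream of Adra1b and Agtr1a, the median was 0.12. Rock1 and the channel Trpc1 stood at 0.99 and 0.69. The probes of Camk2b disagreed, with 0.82 for the dimmer one (4561) and 0.08 for the other, whose groups overlapped. Adjusted p for Rock1, Trpc1 and Camk2b probe 4561 ran from 0.251 to 0.309 in limma. These and 1 of 5 tested Itpr2 probes, at 0.51, were the 4 Gq effector probes whose groups did not overlap, all higher on infarcted arrays, where 2.79% of all tested probes were apart in that direction. The other 4 Itpr2 probes, with overlapping groups, stood at 0.14 to 0.57.

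**Figure D4:**
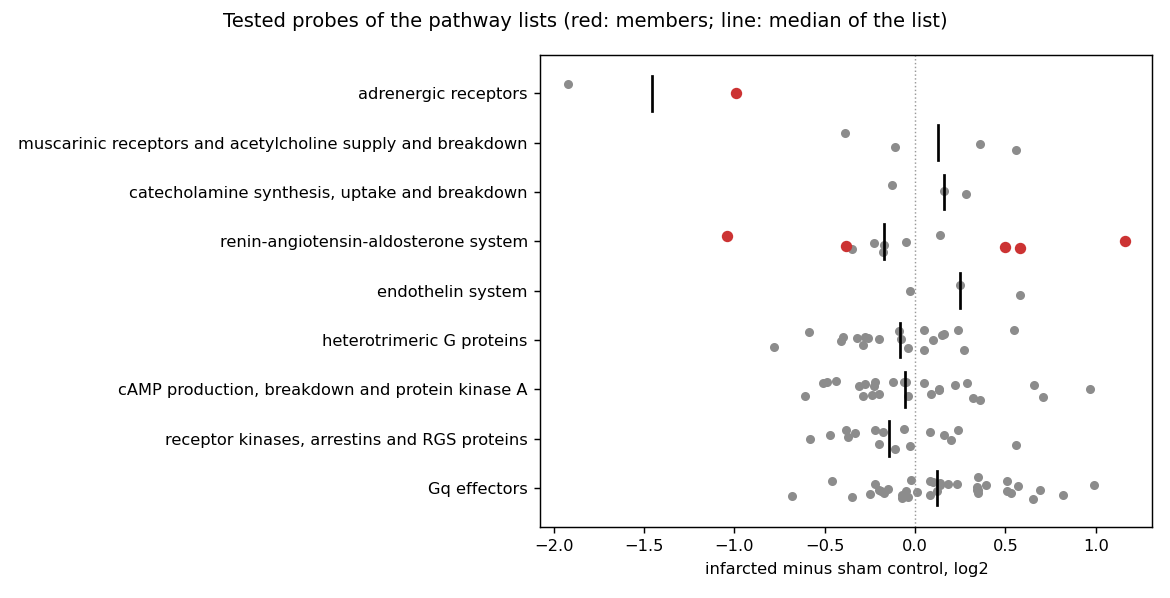
Log2 differences of infarcted minus sham control (horizontal axis) of the 122 tested probes in 9 pathway lists (vertical axis); each point is a probe, red marks the members and the black line is the list's median. The medians of the lists with over 10 tested probes lie between -0.17 and 0.12, and the 2 adrenergic receptor probes are both on the left.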

How the data were processed

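Spotted arrays of 70-mer oligonucleotides were hybridised with red-labelled heart RNA and a green-labelled reference pool, 30 µg each, without dye swap, per the labels. The deposited values are log2 signals relative to a block median, as the values themselves show, while the authors' scanning software and any correction or flagging of spots are not given in the sources used here. Probes were named through the platform annotation supplied with the values: a single symbol was given for 18179 of 33600, several for 87, and 15334 are absent from it.

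Each array was centred on its median. Probes with a value on at least 3 of 4 arrays per group entered a linear model in limma 3.58.1 under R 4.3.3 (lmFit, then eBayes), infarcted minus sham control, with Benjamini-Hochberg adjustment over 20561 probes. The script was tested on simulated data with 50 changed probes of each size. It recovered 20% of true log2 changes of 1 and 70% of changes of 2, so changes near 1 were mostly missed there. P-values measure the spread between hearts together with that of the arrays, whose number limits the precision.

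Members and lists were chosen with earlier results of these data known. The tissue lists of the reference pool were chosen after seeing values, and so was the fit without 2 sham arrays. Named were all members, the genes of each list past the threshold, or else its 3 lowest p-values, and the 2 genes most like each member probe with values on all 8 arrays. Other names and values of list genes (Chrm4, Th, Slc6a2, Atp6ap2, Agtrap, Cma1, Enpep, Mme, Agtr1b, Agtr2, Hsd11b2, Mas1, Edn1, Edn2, Itpr2) were chosen after their values were seen. The alternatives were no centring, quantile and loess scaling, other filters, gene level, trend and robust variance, the replicate number as a block and each array left out.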

Additional observations from a re-analysis of the deposited data

Results flagged for a closer look

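The level of Adra1b on sham control replicate 4 was 1.49, while the other sham arrays lay between 1.79 and 1.82. Its gap to the nearest array was 0.905 of the group's range, past Dixon's critical value at the 95% level for 4 values. This was the 1 such case in 11 groups of member values, and chance gives about 1 in 20. Without that array the difference of Adra1b was -1.07 (limma adjusted p = 0.0543).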

How the results depend on the processing

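No member probe passed or changed direction under any of the 18 alternatives that gave it a value. Adra1b ranged from -1.11 to -0.86 (limma adjusted p from 0.0543 to 0.306), Agt from -1.40 to -0.75, Agtr1a from -0.49 to -0.28, and the Ace probes 5317, 27689 and 33289 from 0.67 to 1.49, 0.41 to 0.70 and 0.28 to 0.70, leaving out the gene level fit, which averages the Ace probes to 0.75. The 157 probes called among all became 35 with quantile normalization (5 higher, 30 lower), 102 with loess (21 higher, 81 lower), 250 among probes with a mean level above the median, 99 at gene level and 1288 without sham replicates 2 and 4, the arrays with fewest values, and the cause was not tested. Leaving out single arrays gave 3 to 741 calls, the most without sham replicate 4 and the fewest without infarcted replicate 3. The pathway lists held 0 to 1 called probe when an array was left out, and 1, Adra2c, without those 2 sham arrays. With the replicate number as a block 1 of all probes was called and no member. Same-numbered arrays deviated together at correlations of 0.035, 0.313, -0.092 and -0.199 for replicates 1 to 4. Of 8 arrays 2 correlated best with their own number. A pairing by number was thus not shown, and so small a check cannot exclude that same-numbered arrays were processed together. Brightness limits the comparison: 2283 probes with a mean level above 3 had a median difference of -0.51.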
